A study of Mus musculus with 1152 samples.

Results

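Among the lymphatic endothelial cells (LECs) of the nasopharyngeal lymphatic plexus (NPLP), 22.7% (exact 95% interval 19.6 to 26.1) carried reads of at least 2 of the 4 genes Cd74, H2-Aa, H2-Ab1 and H2-Eb1. These class II cells were chosen by their own values of the 4 genes, so those values are a description only. They were 96 cells with exactly 2 of the genes, 31 with 3 and 22 with all 4. They were compared with the cells that had no read of any of the 4 genes, 46.2% of all, and the remaining 31.1%, with reads of 1 of them, were set apart. The cells came from aged C57BL/6J mice (c57bl/6 in the labels) of both sexes. The nasopharyngeal mucosa was pooled, CD31+ PDPN+ cells were sorted, and Smart-seq3, a plate-based method that reads whole transcripts, was run on single cells. Each labelled sample is 1 cell, all are of 1 group, and no label names an animal, so there is 1 pool and no replicate. No test was therefore possible. Intervals on shares cover counting error over cells only, and SDs are over cells.

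Major histocompatibility complex (MHC) class II molecules display peptides from engulfed material to CD4+ T cells. H2-Aa and H2-Ab1 encode the alpha and beta chains of I-A, H2-Eb1 encodes the beta chain of I-E, and Cd74 encodes the invariant chain that fills the groove until the peptide is loaded. Transcription of these genes depends on the transactivator Ciita, which acts with the RFX and NF-Y factors at the promoter and is induced by interferon gamma in cells outside the immune system. LECs are known to make class II molecules at low levels and to take them up from dendritic cells.

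In the mm10 assembly the 3 MHC-encoded genes lie close together on chromosome 17. H2-Ab1 spans 34257689 to 34269419 on the plus strand, H2-Aa spans 34282744 to 34287823 on the minus strand, and H2-Eb1 spans 34305867 to 34316674 on the plus strand. The 250 bases before the start of H2-Aa and H2-Eb1 are printed because NF-Y, one of the factors that serve all class II genes, binds the inverted CCAAT of their Y box. The sequences are from RefSeq (GRCm38.p6, the same assembly), are written 5′ to 3′ on the strand of the gene, and have ATTGG or CCAAT in capitals. They span chr17:34287824-34288073 (minus strand) for H2-Aa and chr17:34305617-34305866 (plus strand) for H2-Eb1.
H2-Aa: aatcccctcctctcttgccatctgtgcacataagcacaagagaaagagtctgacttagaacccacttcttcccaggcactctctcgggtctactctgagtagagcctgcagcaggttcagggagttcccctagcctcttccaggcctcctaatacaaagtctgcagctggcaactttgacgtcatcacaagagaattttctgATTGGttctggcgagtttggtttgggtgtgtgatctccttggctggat
H2-Eb1: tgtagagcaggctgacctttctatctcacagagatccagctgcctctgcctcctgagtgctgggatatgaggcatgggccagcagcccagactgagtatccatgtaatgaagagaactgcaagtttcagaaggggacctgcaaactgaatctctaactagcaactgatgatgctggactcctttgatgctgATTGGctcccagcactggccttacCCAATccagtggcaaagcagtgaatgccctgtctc
The ATTGG of H2-Aa begins 48 bases before the start and that of H2-Eb1 59 bases before it. The H2-Eb1 window also holds 1 CCAAT. Either spelling was found in 33.8% of 32851 promoter windows of this length, both strands searched. The longer run CTGATTGG, chosen after these windows were seen, is in both of these windows and, on either strand, in 3.83% of all windows. These are letter matches and say nothing of binding in these cells. H2-Ab1 and Cd74 are named only.

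The 4 genes were found in different shares of the cells. Cd74 was detected in 28.4% of all cells (interval 24.9 to 32) and H2-Ab1 in the same share. H2-Aa was detected in 16% (13.3 to 19) and H2-Eb1 in 15.2% (12.6 to 18.2). The most frequent pair was Cd74 with H2-Ab1, alone in 31 cells, and the least frequent was H2-Aa with H2-Eb1, alone in 4. Each gene was more frequent where another was present, although more cells had 1 of the genes than several: 41.4% of cells with Cd74 also had H2-Ab1, against 23.2% of those without Cd74. At a fixed 20000 reads per cell, to which the deeper cells were thinned and which left 88 shallower cells out, these shares were 43.4% and 11.9%. Deeper cells have more chance to show any gene, and thinning evens out the number of reads. At 20000 reads the median gene was still detected in 1.04 percentage points more class II cells than cells without class II reads.

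The reads behind the detections ran from 1 read to 21637, and this range is the main feature of the group. In the class II cells with Cd74 the lowest number of reads was 1, the median 5.0 and the highest 6300. For H2-Ab1 the lowest was 1, the median 8.0 and the highest 21637. H2-Aa and H2-Eb1 had medians of 6.0 and 5.0 reads and reached 7028 and 2902. The low end and the high end both belong to the group as it was chosen. Of the class II cells, 49 had at least 10 reads of at least 2 of the genes, 36 had at least 10 reads of 1 gene, and 64 had fewer than 10 reads of each. These are called well-covered, intermediate and low-read class II cells below. The limit of 10 reads was set after the reads were seen, and it divides a range rather than cell types. Near the limit, 8 cells had their second highest gene at 5 to 9 reads and 6 cells at 10 to 19, whereas 72 cells had it at 2 reads. Only 7 cells had it at 1 read. Whether such low counts were expression by the cell or reads carried over between wells or indices was not tested. The share of class II cells therefore counts cells with reads, not cells shown to express these genes.

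**Figure D1:**
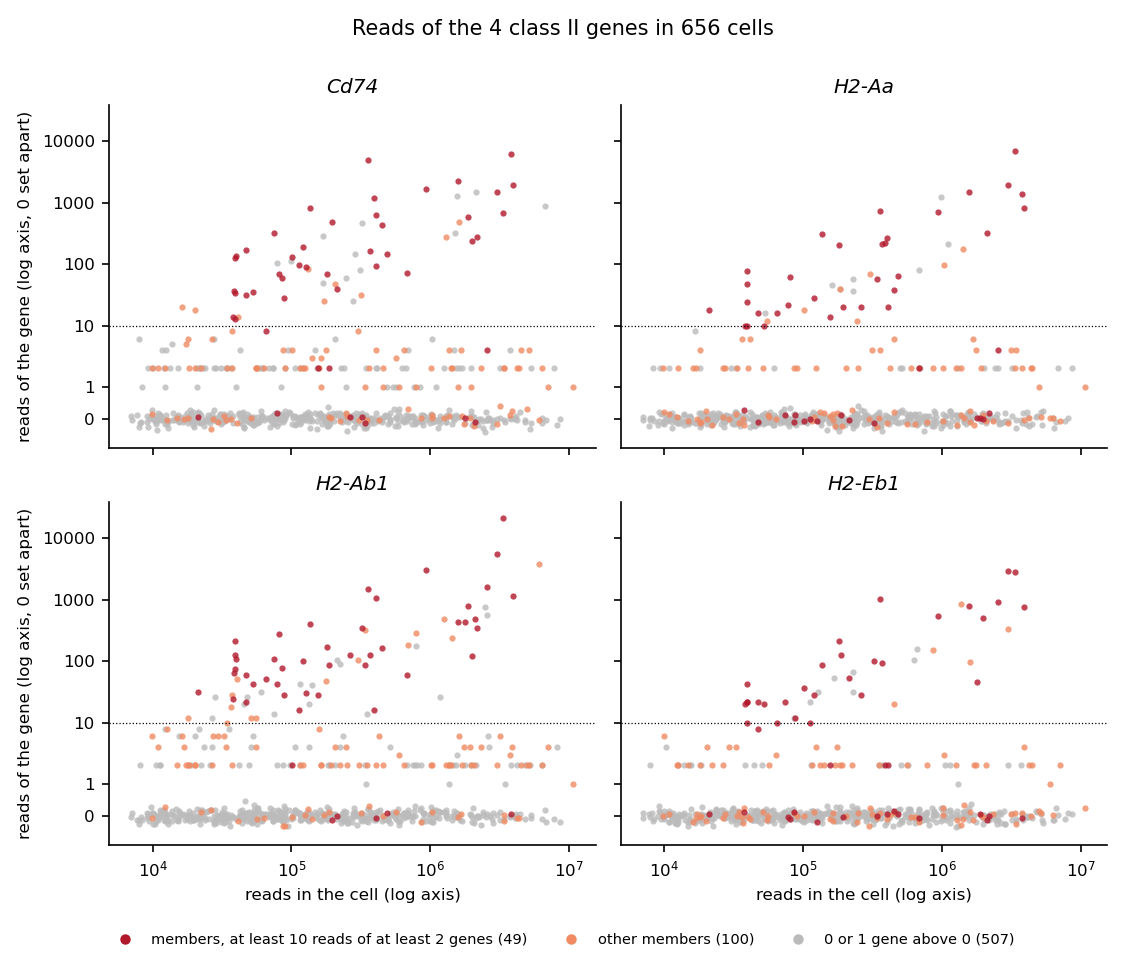
Reads of each class II gene (vertical, log axis with 0 set apart) against all reads of the cell (horizontal, log axis), 1 point a cell. Dark points are the 49 class II cells with at least 10 reads of at least 2 genes, light points the other 100 class II cells, and grey points the cells with 0 or 1 gene. A band at 2 reads runs across all depths, and other points reach 6300 reads of Cd74 and 21637 reads of H2-Ab1.

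Summed over the 4 genes, the class II cells ran from 0.0028 to 231.4 reads per 10000, with a median of 2.93. The well-covered cells ran from 1.97 to 231.4 (median 16.2), the intermediate cells from 0.596 to 17.3 (median 2.87) and the low-read cells from 0.0028 to 9.48 (median 0.181). These ranges overlap, since 10 reads make a small share of a deep cell. At the edge of the rule, cells with exactly 2 genes had a median sum of 1.79 (0.00601 to 25.9) and cells with exactly 1 gene a median of 0.436 (0.00232 to 17). A cell just outside the rule could therefore hold more class II reads than most cells inside it.

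Read depth bore on membership. All cells ran from 7046 to 10727631 reads (median 148202.5), and the class II cells were deeper (median 224021, 9867 to 10727631) than the cells without class II reads (median 106159, 7046 to 6346155). In 4 equal sets of cells ordered by depth, shallowest first, the share of class II cells was 15.9%, 21.3%, 23.8% and 29.9%. The well-covered cells had another pattern, with 0.61%, 12.2%, 9.15% and 7.93%. With the rule applied to 20000 reads per cell, 70 cells (12.3% of those deep enough, interval 9.73 to 15.3) were class II cells, and all 49 well-covered cells were among them. By blocks of 96 consecutive cell numbers, which may follow the plates although no label says so, the share ran from 5.56% (1 of 18 cells) to 50% (10 of 20 cells). These are the 2 deepest blocks, with medians of 2450279.5 and 2042788.5 reads. The other 10 blocks ran from 10.9% to 32.6%, and 11 of the 12 blocks held at least 2 well-covered cells.

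The class II cells carried the genes of lymphatic endothelium. Flt4, the receptor for VEGF-C, and the matrix protein gene Mmrn1 were detected in every class II cell, and Prox1, the transcription factor that sets lymphatic identity, in 97.3% (interval 93.3 to 99.3). Of 8 genes of lymphatic or general endothelial identity, 23 class II cells had 7, 3 had 6 and the rest had all 8. Reads of these genes were thus present in cells that had already been sorted as LECs. The cells without class II reads also had a median of 8 of the 8 genes. Levels were compared with cells without class II reads of nearly the same depth, as described below. The median difference in natural log value over the 8 genes was 0.0219 for class II cells. It was -0.0399 for well-covered cells and 0.229 for low-read cells. Whether a well held a further cell was not tested.

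Leukocytes, which make class II at high levels, were looked for in the same cells. Of 31 leukocyte genes listed, 22 were in the table, and the macrophage and dendritic cell genes Adgre1, Itgam, Flt3 and Xcr1, among others, were not in the table used here. The study removed genes expressed in fewer than 3 cells. Whether that is why these genes are absent was not tested. Ptprc (CD45, which nearly all leukocytes carry) had reads in 1 class II cell and 3 cells without class II reads. Tyrobp, a signalling adaptor of myeloid and natural killer cells, had reads in 2 and 1. Fcer1g, the Fc receptor gamma chain, had reads in 26 and 17. At least 1 of these 3 was present in 28 class II cells (18.8%, interval 12.9 to 26), in 25 of the cells with 1 class II gene (12.3%, 8.09 to 17.6) and in 21 of the cells without class II reads (6.93%, 4.34 to 10.4). Of these 3 genes, Fcer1g made up most of the excess. In cells matched on depth, Fcer1g was detected in 24 class II cells (16.8%, 11.1 to 23.9) and 8 of the others (5.59%, 2.45 to 10.7). Over the 22 genes, 16 had a higher mean in the matched class II cells, 4 a lower one and 2 had no read. None of the 22 was detected in 30% of either group. Over all genes, rare ones included, the median difference in mean was also above 0, at 3.4e-05. Cd14, a receptor for lipopolysaccharide in myeloid cells, was detected in 26 class II cells (18.2%, 12.2 to 25.5) and 15 others (10.5%, 5.99 to 16.7), and at 20000 reads per cell in 10.9% (6.26 to 17.4) and 4.28% (2.16 to 7.53). Laptm5 was detected in 5 and 0. The dendritic cell gene Itgax and the macrophage gene C1qa had no read in either matched group. For a count of 0, 3 divided by the number of cells allows a share of up to about 2.1%, which is not the exact interval used elsewhere. Over the 22 genes the summed level ran from 0 to 49.8 reads per 10000 in the matched class II cells (median 0.0113) and from 0 to 17.4 in the others (median 0.0). The part of leukocyte RNA in the class II reads as a whole was not tested, but the measurements below are also given for cells without leukocyte genes.

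A single cell stood apart. It had the highest class II sum of all, 231.4 reads per 10000, with H2-Aa at 20.4, H2-Ab1 at 41.4, H2-Eb1 at 28.5 and Cd74 making up the rest. It also had reads of 11 leukocyte genes, among them 16.2 reads per 10000 of Cd79a and 4.03 of Cd79b, which encode the signalling chains of the B cell receptor, 4.28 of Ptprc and 6.33 of Ccr7. The same cell had Prox1, Flt4 and Mmrn1 at natural log values of 1.18, 1.18 and 2.71. No other class II cell had more than 3 leukocyte genes. Of the next 11 cells by class II sum, 7 had no read of any of the 22 leukocyte genes, and these 7 ran from 40.3 to 119.4 class II reads per 10000. Among the 49 well-covered cells, 20 had none of the 22 genes (40.8%, interval 27 to 55.8). The share was 44.3% (36.2 to 52.7) in all class II cells and 69.6% (64.1 to 74.8) in the cells without class II reads, which were shallower, so class II cells more often held a read of at least 1 leukocyte gene.

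**Figure D2:**
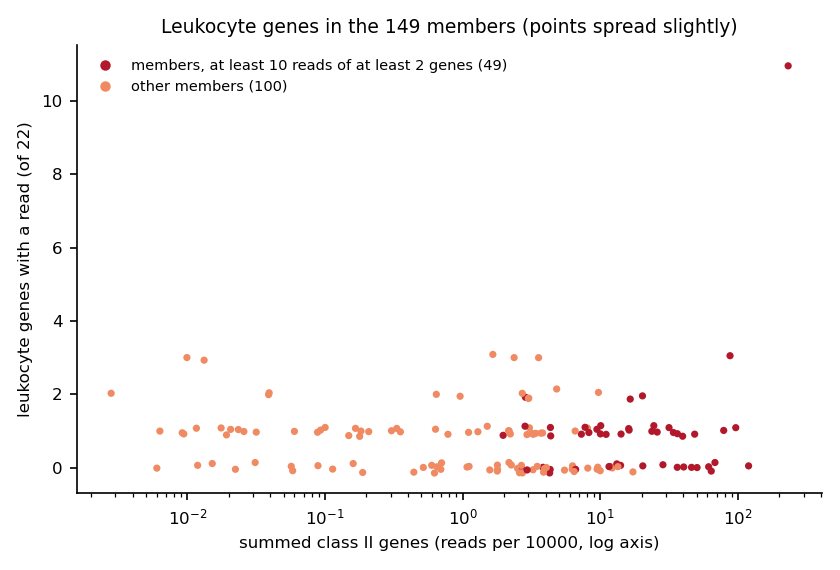
Number of 22 leukocyte genes with a read (vertical) against the summed class II genes in reads per 10000 (horizontal, log axis) for the class II cells, 1 point a cell, spread slightly in height. The cell with 11 leukocyte genes lies at 231.4 reads per 10000, and the next cell by class II sum, at 119.4, has 0.

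To describe the class II cells beyond the genes that chose them, each was paired with a cell without class II reads of nearly the same depth. All but 6 were paired, with median depths of 194397 and 191264 reads. The class II cells of these pairs still had more detected genes (median 4355 against 4128). Values are natural logs of 1 plus reads per 10000, and a difference is the mean over class II cells minus the mean over their matched cells. Genes detected in at least 30% of either group were compared, 6075 in all with the 4 class II genes left out. Only 4 of them (0.0658%) were at least 0.3 higher and 0 (0.0%) at least 0.3 lower. Few genes thus differed by that much, and the values of each gene named below overlapped between the 2 groups. The median difference over all these genes was 0.003. As it is above 0, more of all these genes were higher than lower. Their share was not counted, so the counts of higher and lower genes per list have none beside them.

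The class I genes had the largest median difference of the lists that the rule did not use. Class I molecules display peptides from inside the cell to CD8+ T cells. The median difference over the 17 genes was 0.13, with 14 higher and 3 lower, and 1 of them past 0.3. H2-K1, a class I heavy chain, had values from 1.23 to 4.84 (median 3.58) in class II cells and from 0 to 4.51 (median 3.39) in matched cells, a difference of 0.305. B2m, the class I light chain, had values from 2.28 to 5.2 (median 3.63) against 0.612 to 4.48 (median 3.5), a difference of 0.23. H2-Q6, a nonclassical heavy chain, differed by 0.28 and H2-D1 by 0.19. The lowest values were higher in class II cells for each of B2m, H2-K1 and H2-D1, and the highest values were also higher for each. Reads of H2-Q6 and H2-Q7, and of other near-identical MHC genes, may have been shared in counting. The immunoproteasome subunit Psmb10 was detected in 72.7% of class II cells (interval 64.7 to 79.8) and 55.9% of matched cells (47.4 to 64.2), and Psmb8 in 86% (79.2 to 91.2) and 69.9% (61.7 to 77.3). H2-T23 (-0.12), Erap1 (-0.07) and H2-M3 (-0.05) were the 3 lower genes.

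The genes that act on class II molecules themselves were rare. H2-DMa and H2-DMb1 encode the chains of the factor that exchanges the invariant chain fragment for peptide. H2-DMa was detected in 20 class II cells (14%, interval 8.76 to 20.8) and 4 matched cells (2.8%, 0.767 to 7.01). H2-DMb1 was detected in 11 (7.69%, 3.9 to 13.3) and 3 (2.1%, 0.435 to 6.01). The other 4 genes of this list, H2-DMb2, H2-Oa, H2-Ob and H2-Eb2, were detected in at most 2 class II cells each. All 6 were below the 30% needed for the gene counts, and the median difference over them was 0.015. Without the cell with B cell genes it was 0.006, and without cells with a leukocyte gene 0.007. Either H2-DM gene was present in 12 of the 22 cells with all 4 class II genes (54.5%, 32.2 to 75.6), in 11 of 96 with exactly 2 (11.5%, 5.86 to 19.6), in 12 with 1 gene (5.88%, 3.08 to 10) and in 9 with none (2.97%, 1.37 to 5.56). It was present in 7 of the 64 low-read cells (10.9%, 4.51 to 21.2). With exactly 3 class II genes it was present in 4 of 31 (12.9%, 3.63 to 29.8), so only the cells with all 4 stood out. Of those 22 cells, 7 also had a read of Ptprc, Tyrobp or Fcer1g (31.8%, 13.9 to 54.9), against 6.93% of cells with none of the class II genes. The part of leukocyte RNA in this share was not tested. The H2-DM genes took no part in choosing the cells, but they lie in the same region of chromosome 17 (H2-DMa at 34119541 to 34139101 and H2-DMb1 at 34153072 to 34160230, both on the plus strand).

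Ciita was seen in 8 of all cells. Of these 2 were class II cells, both well-covered, and 5 were cells without class II reads. In matched cells it was detected in 2 on each side (1.4%, interval 0.17 to 4.96). A difference in Ciita was not detectable at this depth. The 8 genes of class II transcription had a median difference of -0.006, with 3 higher and 5 lower, and the NF-Y subunits Nfya, Nfyb and Nfyc differed by 0.02, -0.07 and 0.02. Lysosomal genes that cut or reduce antigen were abundant in both groups: Ctsb, Ctsd and Ctsl (cathepsins) and Lgmn (legumain) were detected in 97.9% or more of class II cells and differed by 0.11, 0.15, 0.08 and 0.17. Ctss, the cathepsin that trims the invariant chain in professional antigen-presenting cells, was detected in 3 class II cells and 1 matched cell, and Ifi30 in 3 and 4. Over the 9 genes of lysosomal processing the median difference was 0.04.

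Costimulatory genes, which give T cells the second signal, had a median difference near 0. Of 15 listed, 10 were in the table, Cd80 and Cd86 not among them, and the median difference was 0.002. The study's removal of rarely expressed genes, given above, applies to these genes as well. Cd40 was detected in 25.9% of class II cells and 22.4% of matched cells, and Cd274, which encodes the inhibitory ligand PD-L1, in 20.3% and 18.2%. The intervals of both pairs overlap (18.9 to 33.9 and 15.8 to 30.1 for Cd40, 14 to 27.8 and 12.2 to 25.5 for Cd274).

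Of 22 interferon gamma response genes in the table, 21 were higher and 1 lower, with a median difference of 0.04 and none past 0.3. Only 16 of the 22 reached the detection minimum used for the gene counts. The share of higher genes among all genes was not counted, so the 21 have no share to be read against. The guanylate-binding protein gene Gbp2 was detected in 71.3% of class II cells (interval 63.2 to 78.6) and 60 matched cells (42%, 33.8 to 50.5). Its values ran from 0 to 4.89 (median 0.12) and from 0 to 2.15 (median 0), a difference of 0.21. Gbp2 had the largest difference in detection of the 6075 genes, 29.4 percentage points. Class II cells had more detected genes in these pairs, and 7.59% of the 6075 genes were detected in at least 10 points more of them, and 75 genes (1.23%) in at least 10 points fewer. When pairs were matched on the number of detected genes, Gbp2 was detected in 71.3% and 49.7%. At 20000 reads per cell its share was 33.5% (27.7 to 39.6) without class II reads and 44.9% (30.7 to 59.8) in well-covered cells, and these intervals overlap. Irf8, a transcription factor, was detected in 58% and 43.4%, and Gbp4 in 42% and 28%. The 4 genes of the interferon gamma receptor and its kinases had a median difference of 0.009, and Ifngr1 was detected in 76.2% of both groups.

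Of 29 genes of the type I interferon response, 21 were higher and 8 lower, with a median of 0.03. Detection in at least 30% of either group was reached by 23 of the 29. The order of the 2 interferon medians was not stable: with a narrower limit on depth they were 0.0335 for interferon gamma and 0.0485 for type I. Isg15, a ubiquitin-like protein, differed by 0.18 and Bst2 (tetherin) by 0.16, while Ifi27 differed by -0.06 and Lgals3bp by -0.08. No gene of this list passed 0.3.

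**Figure D3:**
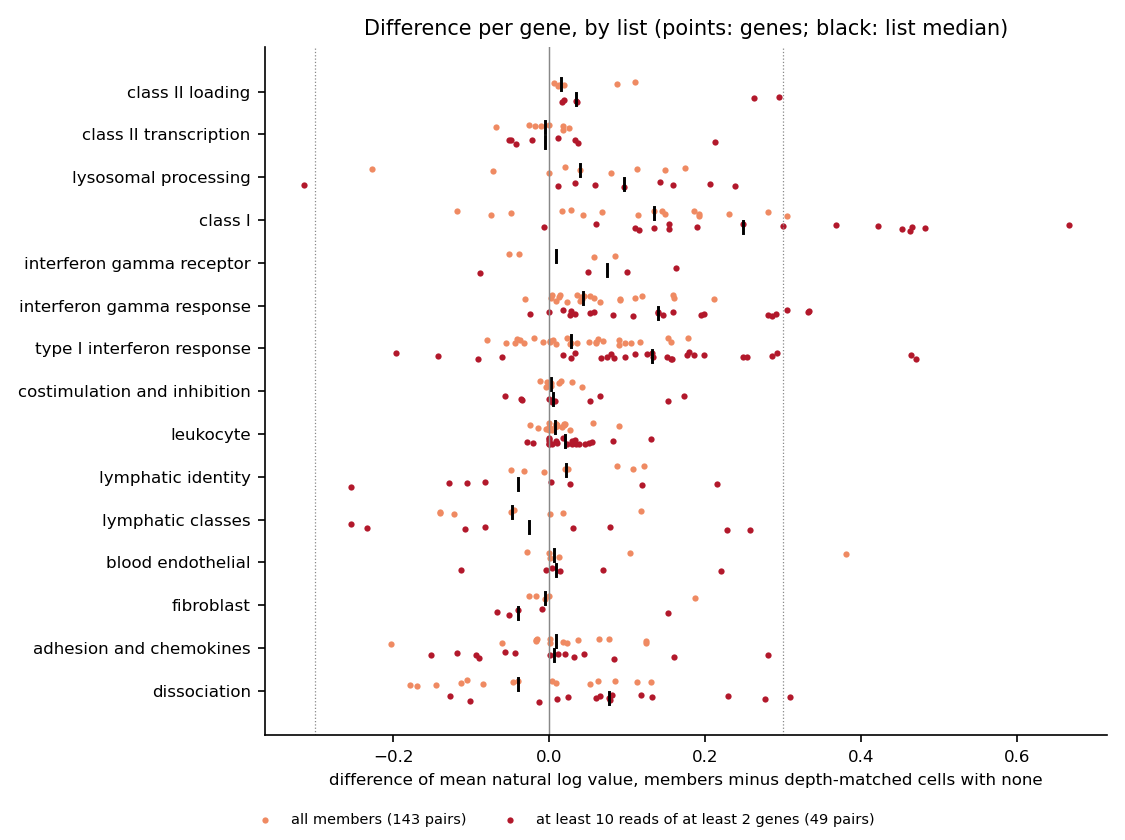
Difference of mean natural log value (horizontal), class II cells minus depth-matched cells without class II reads, for each gene of 15 lists (rows). Light points are all class II cells (all but 6 paired), dark points the well-covered cells (49 pairs), black bars list medians and dotted lines the limits of 0.3. The class I median moves from 0.13 to 0.25 between the 2 sets of pairs.

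The 4 genes past the limit came from different functions. Aqp1, a water channel, had values from 0 to 5.07 (median 2.52) against 0 to 5.46 (median 1.41), a difference of 0.38. Cyr61, a matricellular protein, differed by 0.35, Serpinh1, the collagen chaperone HSP47, by 0.33, and H2-K1 by 0.305. The values of each of the 4 genes overlapped between the groups. At 20000 reads per cell, against all cells without class II reads that were deep enough, Aqp1 differed by 0.13 and Cyr61 by 0.245, both under the limit, Serpinh1 by 0.31 and H2-K1 by 0.39. Just under the limit were Trp53i11 (0.29), Serpinb9, a granzyme B inhibitor (0.28), and H2-Q6 (0.28). At the other end were Gpx4, a lipid peroxidase that protects membranes (-0.28), Arl4a (-0.27) and Slc10a6 (-0.27).

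Genes of other cell types were looked for in the same pairs. Among fibroblast genes, Dcn (decorin) was detected in 66 class II cells (46.2%, interval 37.8 to 54.7) and 28 matched cells (19.6%, 13.4 to 27), the second largest difference in detection of all genes. Col1a1 was detected in 8 and 3, Col1a2 in 5 and 2, Pdgfra in 4 and 1 and Lum in 2 and 4. Summed, the 5 fibroblast genes ran from 0 to 49.3 reads per 10000 in class II cells and from 0 to 130.1 in matched cells. Epcam and Krt18 had no read in either group, the mural genes were detected in at most 7 cells of a group each, and Flt1 and Ackr1 of blood endothelium in at most 4. The part of RNA from other cells was not tested. Selp, the adhesion molecule P-selectin, was detected in 41.3% (33.1 to 49.8) and 21% (14.6 to 28.6), whereas Icam1 differed by -0.20. The 15 immediate-early and heat shock genes linked to tissue dissociation had a median difference of -0.04, with 7 higher and 8 lower. Their sum ran from 0.898 to 958.5 reads per 10000 (median 150.9) in class II cells and from 0.0814 to 1186 (median 187.2) in matched cells.

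For markers of lymphatic classes, the shares of class II cells with and without the marker had overlapping intervals when the marker was read at 20000 reads per cell. Only the marker was thinned, and the class II cells stayed those of the full reads. Class II cells made up 23.2% of the 99 cells with Ptx3, a marker of a capillary class, and 22.6% of the cells without (intervals 15.3 to 32.8 and 19.2 to 26.3). With the marker at 20000 reads the shares were 23.1% and 24.2%. For Stab2, Fndc1, Ptn, Foxp2, Cldn11 and Gja4 the shares with the marker at 20000 reads lay between 21.7% and 26.2% with the marker and between 22.5% and 25.6% without it. The intervals of each pair overlapped. At full depth 23.4% of cells with Lyve1 and 2 of the 27 without it (7.41%) were class II cells, and 25.9% and 17.6% of cells with and without Foxp2. With the marker at 20000 reads the shares for Lyve1 were 25.1% and 20.5%. The median difference over the 8 markers was -0.05.

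More genes passed 0.3 in the pairs of well-covered cells than in the pairs of all class II cells. All 49 were paired, with median depths of 194397 and 191264 reads and medians of 4383 and 3951 detected genes. Of 6411 genes compared, 65 (1.01%) were at least 0.3 higher and 31 (0.484%) at least 0.3 lower. The 62 pairs of low-read cells gave 26 (0.424%) higher and 39 (0.636%) lower of 6129. Counts past 0.3 of this size thus arose at both ends of the range of class II reads. Of the 17 class I genes, 8 were past 0.3 in the well-covered pairs and 0 in the low-read pairs, with medians of 0.25 and 0.02. H2-Q6 differed by 0.67, H2-Q7 by 0.48, Psmb10 by 0.465, H2-K1 by 0.46, H2-T22 by 0.45, Tapbp (tapasin, which loads class I) by 0.42 and B2m by 0.37 in the well-covered pairs. B2m ran from 2.45 to 4.76 (median 3.73) in the well-covered cells and from 0.612 to 4.48 (median 3.53) in their partners. The interferon gamma list had medians of 0.14 in well-covered pairs and -0.002 in low-read pairs, and the type I list 0.13 and 0.01.

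At 20000 reads per cell B2m and H2-K1 had their lowest mean in cells without class II reads and their highest in well-covered cells. B2m had a mean natural log value of 3.35 (SD 0.695) in cells without class II reads, 3.5 (SD 0.65) in 54 low-read cells, 3.56 (SD 0.502) in 34 intermediate cells and 3.73 (SD 0.413) in the 49 well-covered cells. H2-K1 had means of 3.12, 3.29, 3.53 and 3.72 in the same order. Their lowest values in the well-covered cells were 2.8 for B2m and 2.74 for H2-K1, against 0 in the cells without class II reads. The well-covered group was the smaller of these 2, and a lowest value tends to fall as a group grows, so these lowest values are not compared further. Cells with 1 class II gene had means of 3.5 (SD 0.587) for B2m and 3.16 (SD 0.822) for H2-K1. Their B2m mean was the same as that of the low-read cells. H2-DMa was detected in 1 cell without class II reads, 0 of 54 low-read, 1 of 34 intermediate and 11 of 49 well-covered cells. The last is a share of 22.4% (interval 11.8 to 36.6), and the interval of 0 of 54 reaches 6.6%. H2-DMb1 was detected in 0, 1, 1 and 10 cells of the same groups, 20.4% (10.2 to 34.3) in the well-covered cells. Psmb10 was detected in 41.2% (35.2 to 47.5), 27.8% (16.5 to 41.6), 55.9% (37.9 to 72.8) and 73.5% (58.9 to 85.1). Dcn was detected in 16.3% (12 to 21.4) of cells without class II reads and 36.7% (23.4 to 51.7) of well-covered cells. Fcer1g was detected in 4.28% (2.16 to 7.53) and 14.3% (5.94 to 27.2).

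**Figure D4:**
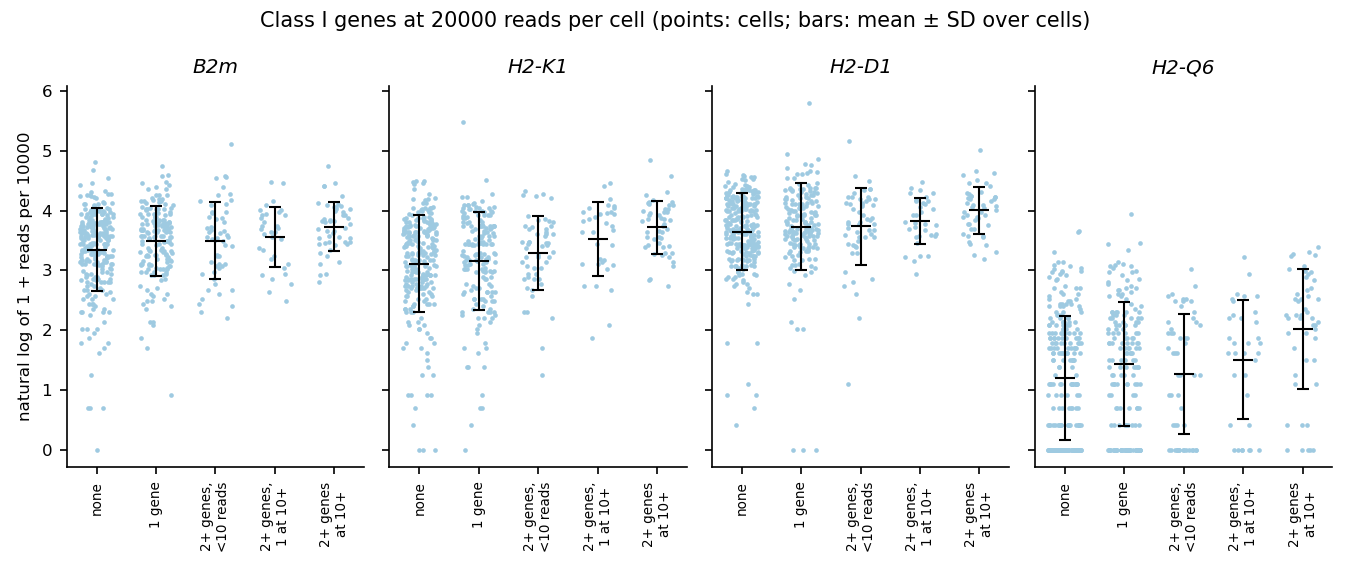
Natural log of 1 plus reads per 10000 (vertical) of B2m, H2-K1, H2-D1 and H2-Q6 at 20000 reads per cell in 5 groups by class II reads (horizontal): none, 1 gene, and at least 2 genes with fewer than 10 reads of each, at least 10 reads of 1, or at least 10 reads of 2. Points are cells and bars the mean ± SD over cells; the mean of H2-K1 is 3.12 in the first group and 3.72 in the last, and the points overlap.

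**Figure D5:**
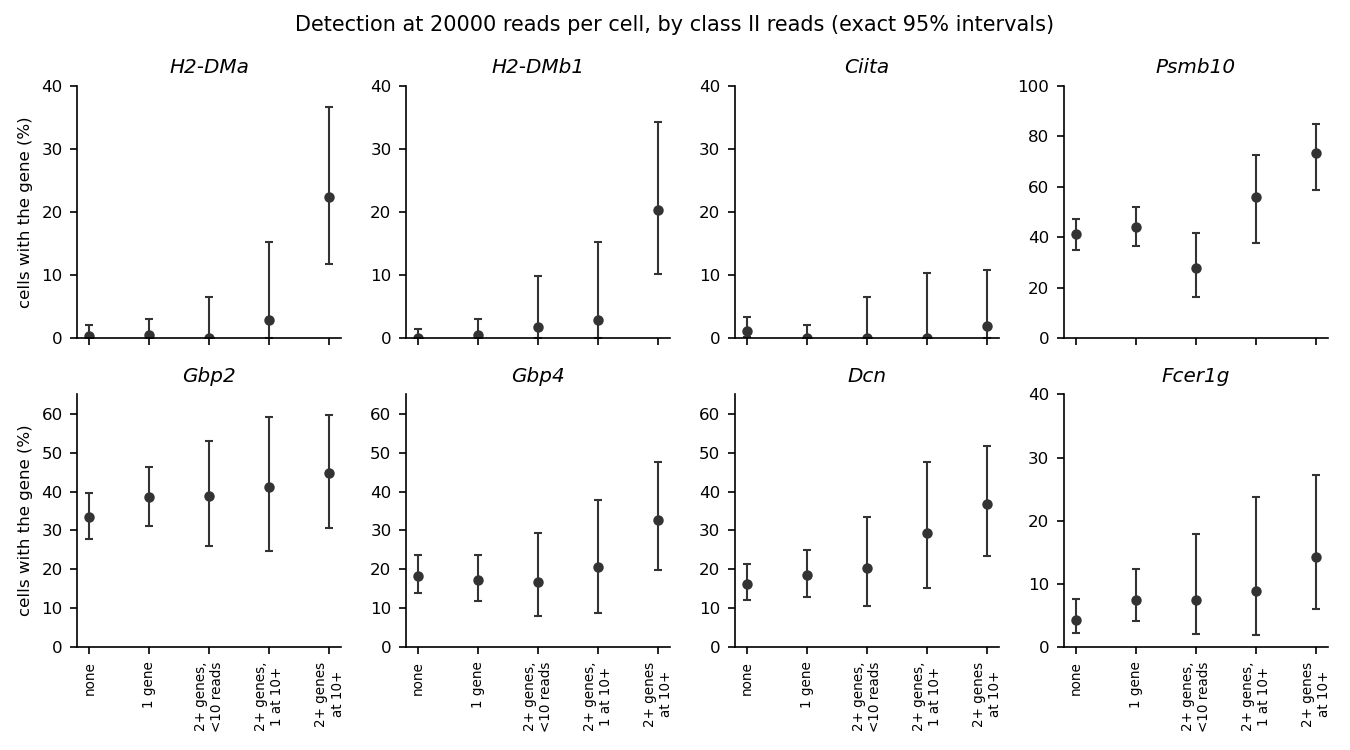
Share of cells with a read (vertical, percent, scale set per gene) at 20000 reads per cell for 8 genes in the same 5 groups (horizontal), with exact 95% intervals. H2-DMa and H2-DMb1 are at or below 2.94% in the first 4 groups and at 22.4% and 20.4% in the last, and Ciita is at or below 2.04% in all.

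The same genes were read in cells without leukocyte genes. At full reads, H2-DMa was detected in 12 of all 49 well-covered cells (24.5%, interval 13.3 to 38.9) and H2-DMb1 in 10 (20.4%, 10.2 to 34.3). Among the 38 well-covered cells with none of Ptprc, Tyrobp and Fcer1g, H2-DMa was detected in 6 (15.8%, interval 6.02 to 31.3) and H2-DMb1 in 4 (10.5%, 2.94 to 24.8). The other detections were in cells with a read of 1 or more of those 3 genes. Among the 20 well-covered cells with none of the 22 leukocyte genes, H2-DMa was detected in 5 (25%, interval 8.66 to 49.1) and H2-DMb1 in 3 (15%, 3.21 to 37.9). In the cells with neither class II nor leukocyte reads these genes were detected in 2 (0.948%, 0.115 to 3.38) and 3 (1.42%, 0.294 to 4.1). Mean natural log values in the same 2 sets were 3.61 (SD 0.463) and 3.35 (SD 0.615) for B2m, 3.61 (SD 0.477) and 3.13 (SD 0.756) for H2-K1, and 4.04 (SD 0.337) and 3.63 (SD 0.618) for H2-D1. These 2 sets were not matched on depth. Psmb10 was detected in 85% (62.1 to 96.8) and 51.7% (44.7 to 58.6), and Dcn in 45% (23.1 to 68.5) and 20.9% (15.6 to 27).

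Beyond the lists, the largest differences in the well-covered pairs, named after their values were seen, were in Lrg1, a secreted leucine-rich glycoprotein (0.71), H2-Q6 (0.67) and Thbd, the anticoagulant receptor thrombomodulin (0.66). Lrg1 ran from 1.09 to 4.82 (median 2.93) against 0.046 to 4.47 (median 2.48), and Thbd from 0.0126 to 3.45 (median 1.8) against 0 to 3.5 (median 1.13). With reads thinned to 20000 per cell, well-covered cells and all cells without class II reads had means of 2.91 and 2.47 for Lrg1. For H2-Q6 these means were 2.03 and 1.2, and for Thbd 1.76 and 1.21, so Lrg1 did not lead there. The genes lowest against their partners were Cd24a (-0.46), Banf1 (-0.44) and Cyp4b1 (-0.42). In the low-read pairs other genes led. Aqp1 differed by 0.85 there, with medians of 3.11 and 1.01, and Lyve1, the hyaluronan receptor of capillary LECs, by 0.57. At 20000 reads per cell, against all cells without class II reads rather than partners, the low-read cells had means of 2.48 and 2.04 for Aqp1 and 2.21 and 1.93 for Lyve1, which are smaller differences. In the well-covered pairs Aqp1 differed by -0.11 and Lyve1 by -0.25. The immediate-early gene Fos (-0.55), the feedback inhibitor Socs3 (-0.49) and Apoe (-0.56) were lower in the low-read cells than in their partners. Aqp1 thus stood highest against its partners in cells with few class II reads, and the class I genes in cells with many. These differences between the 2 sets of pairs have no replicate check.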

How the data were processed

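Single LECs were sorted from pooled nasopharyngeal mucosa of aged mice, and Smart-seq3 libraries were made in plates. Per the labels, the tools were STAR, featureCounts and Seurat 4.1.0, and the build mm10. The deposited values are natural log values of 1 plus reads per 10000. The methods call the scale log2, but with base e every cell sums to 10000, and with base 2 to at most 4937.53. Reads were recovered from the smallest value above 0 in each cell, and 100% of the values above 0 were whole reads within 0.01. How the authors treated reads that map to several genes is not given in the sources used here, and copies of a molecule were not collapsed.

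The labels describe 1152 cells, of which 656 are in the table of 23168 genes and 496 were not analysed here. Adult mice of the study were not analysed here. No cell name or set of values was repeated. Class II cells, 149 of the 656, were chosen by values above 0 for at least 2 of 4 genes; 303 cells had none and 204 had 1. Of the class II cells 143 were matched. Each, deepest first, was matched to the nearest unused cell without class II reads within 1.25 times its depth, which left 6 unmatched. Thinning drew 20000 reads per cell without replacement, leaving out 88 shallower cells, 12 of them class II cells. Exact Clopper-Pearson 95% intervals were used (Python 3.11.15, scipy 1.17.1). Named genes were those of the lists, 193 in the table and 19 not, and up to 10 genes each way with the largest difference past 0.3 among genes detected in at least 30% of either group. Matching and differences were tested on simulated data. The cells, lists and alternatives were chosen with earlier results of these data known. Alternatives changed the rule, depth matching, thinning, leukocyte cells, averaging and the detection minimum.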

Additional observations from a re-analysis of the deposited data

How the results depend on the processing

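The share of class II cells depends on the rule. It was 8.08% with at least 3 genes, 53.8% with at least 1, 6.55% with values above 1, 12.3% at 20000 reads per cell and 28.8% among cells with at least 4000 detected genes, against 22.7%. With at least 10 reads of 2 genes, chosen after seeing the data, it was 7.47%. The share with a leukocyte gene was 18.2% of matched class II cells and 10.9% at 20000 reads. The number of genes at least 0.3 higher was 4, and 2 without matching, 43 with at least 3 genes, 7 without cells with a leukocyte gene and 16 from linear means. The number at least 0.3 lower was 0, and 1 when thinned, 33 with at least 3 genes, 5 without cells with a leukocyte gene, 25 from linear means, 3 within blocks, 2 under a narrower limit on depth and 5 when matched on detected genes. Among the alternatives chosen after seeing the data, the well-covered cells gave 65 higher and 31 lower, the low-read cells 26 and 39, and matching on both depth and detected genes 6 lower.

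The class I median was 0.24 with at least 3 genes, 0.25 in well-covered and 0.0215 in low-read cells. The interferon gamma median was 0.12 with at least 3 genes and 0.14 in well-covered cells. The type I median was 0.11 with at least 3 genes, 0.0774 from linear means and 0.13 in well-covered cells. The lymphatic identity median was -0.0399 in well-covered and 0.23 in low-read cells. The dissociation median changed sign: it was 0.0107 with at least 3 genes, 0.0299 without cells with a leukocyte gene, -0.0911 when matched on detected genes, 0.0761 in well-covered cells, -0.12 in low-read cells and -0.12 when matched on both. Aqp1 was at -0.11 in well-covered cells. The cause of these shifts was not tested. Sets of about 50 pairs hold fewer cells, which widens differences. Leaving out the cell with B cell genes, also chosen afterwards, moved no named gene's difference by 0.1 or more but took the class II loading median from 0.015 to 0.006. No paired analysis was possible because the labels pair no cells: they form 1 group, and the pairs used here were made by depth. Depth limits what can be said of Ciita and the class II loading genes, seen in few cells.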
